A study of Homo sapiens with 12 samples.

Results

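Sorted CD24-high and CD24-low tumour cells were compared in 6 of the 12 RNA-seq libraries of the study, 3 of each population, all from mice kept on the control diet. The libraries were chosen by their titles, and every gene that passed a filter on low counts was compared. The cells were SUM159 (SUM159PT), a human triple-negative breast cancer line with a mesenchymal appearance. Female NOD scid gamma mice, which lack T, B and natural killer cells but keep their own stroma, vessels and myeloid cells, were injected with 1500000 of these cells at 8 weeks of age. The control group, labelled untreated, ate standard chow, while the other mice of the study went through a fasting-mimicking diet for 4 days each week. Cells dissociated from the tumours were stained with antibodies to human CD24 and human CD44. The sort gave a CD44+CD24-Low population, here CTR_LO, and a CD44+CD24-High population, here CTR_HI. All 6 libraries share the cell line, the host strain, the standard diet and CD44-positive sorting. Messenger RNA libraries that keep the strand were made from 500 ng of total RNA. The study used a single cell line, the labels do not say whether the replicates were separate mice or whether mice were pooled, and they do not say how reads from the mouse were treated. The p-values therefore measure the spread between these samples, which may be technical.

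CD44 is a hyaluronan receptor and CD24 a small surface glycoprotein anchored in the membrane by a lipid. In breast tumours the CD44-positive, CD24-low phenotype is used to enrich for cells that start tumours and form spheres, and it goes with mesenchymal traits. Cells with more CD24 are usually taken as more differentiated and more epithelial. The comparison asked which transcripts separate these populations when the mice were not on the fasting-mimicking diet.

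Counted reads were 47587142, 29820825 and 32473413 in CTR_LO replicates 1 to 3 and 32843175, 29049144 and 32916552 in CTR_HI replicates 1 to 3. Of 26475 gene symbols, 15461 passed the filter. Levels are given in CPM, the depth-scaled count after TMM adjustment for composition, and differences as log2 fold changes of CTR_HI over CTR_LO ± standard error. Where the libraries carrying one replicate number are set side by side, the labels do not say that a number marks a shared tumour or day. The libraries numbered 3 ran against those numbered 1 and 2. Across 12127 genes at 2 CPM or more, the difference between CTR_HI and CTR_LO in number 1 correlated with that in number 2 (Pearson r = 0.52) and inversely with that in number 3 (r = -0.51), and numbers 2 and 3 gave r = -0.41. The 3 differences share no library, and genes are not independent replicates. Against the difference between the means of the same populations under the fasting-mimicking diet, which shares no library with them, numbers 1, 2 and 3 gave r = 0.42, 0.58 and -0.38. The labels were taken as given throughout, and whether they hold for the libraries numbered 3 was not tested. Values without both of these libraries, a choice made after the data were seen, stand beside the main results. Another measured property set CTR_HI replicate 3 apart. Its deviation from the mean of the 6 libraries rose with transcript length, the median of the longest class of transcripts lying 0.27 on the log2 scale above that of the shortest, against -0.0927 to -0.0188 in the other 5 libraries.

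The messenger RNA of the antigens used for the sort did not separate the populations. CD24 (chromosome 6, 106969831 to 106976855 on GRCh38) stood at 2.82, 2.32 and 1.31 CPM in CTR_LO replicates 1 to 3 and at 2.86, 1.41 and 1.43 CPM in CTR_HI. These levels rest on 136, 69 and 44 counts in CTR_LO and on 96, 41 and 50 counts in CTR_HI, and CD24 has near-identical copies in the genome between which reads can be split. The groups overlapped, and the mean was lower, not higher, in the libraries labelled CD24-high. The log2 fold change was -0.18 ± 0.41, with a 95% interval from -1.05 to 0.69, so that with all 6 libraries the interval excludes a 2-fold higher level in CTR_HI. An exact two-sided permutation test on CPM gave p = 1, where the smallest p that 3 libraries against 3 allow is 0.1. CD44 (chromosome 11, 35139171 to 35232402) was abundant in every library, at 756, 1012 and 1022 CPM in CTR_LO and 993, 1179 and 804 CPM in CTR_HI. Here too the groups overlapped, with a log2 fold change of 0.09 ± 0.18 (interval -0.30 to 0.49; exact permutation p = 0.7). Without both libraries numbered 3 the log2 fold change was -0.25 ± 0.46 for CD24 (interval -1.26 to 0.77) and 0.32 ± 0.21 for CD44 (interval -0.15 to 0.79). For CD24 it was -0.34 ± 0.47 without number 1 (interval -1.37 to 0.68) and 0.04 ± 0.51 without number 2 (interval -1.07 to 1.15). The last of these intervals does not exclude a 2-fold higher level of CD24 in CTR_HI. The sort was on surface protein, which was not measured here, so the populations are called by their labels.

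No gene passed an adjusted p below 0.05 in edgeR's quasi-likelihood test, 0 of 15461 or 0% of the genes tested. The smallest adjusted p was 1. At an unadjusted p below 0.05 there were 91 genes, 0.589% of those tested, 28 with a higher and 63 with a lower mean in CTR_HI. With no difference at all a share near 0.05 of the genes would be expected, so this fit was conservative here. DESeq2 also called 0 genes, with 98 at an unadjusted p below 0.05. A fit with a term for each replicate number within a diet called 0 genes as well (0%), with 518 at an unadjusted p below 0.05 and a smallest adjusted p of 0.999. The median log2 fold change over all genes was -0.00337 and 49% of genes had a positive one. All CTR_HI libraries lay above all CTR_LO libraries in 228 genes (1.47%), and all CTR_LO libraries lay above all CTR_HI libraries in 303 (1.96%).

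The width of the intervals says how large a difference these libraries leave possible in the fit without a term for number. Variation between numbers enters the errors of that fit. The standard error was 0.18 for CD44 and 0.41 for CD24, against 0.13 and 0.26 with the term. For some genes it was larger with the term, as for THBS2 (0.30 without, 0.35 with). For 12387 genes (80.1%) the 95% interval of the difference lay within 2-fold in either direction, and for 9182 (59.4%) within 1.5-fold. Precision followed abundance. Of genes between 10 and 100 CPM, 98.2% had an interval within 2-fold and 85.7% within 1.5-fold. Under 1 CPM the shares were 8.54% and 0%, so for most of the 2412 genes at that level a 2-fold difference could not be told from none at this spread and depth. A fitted difference beyond 2-fold was found in 318 genes, 65 higher and 253 lower in CTR_HI, and 280 of the 318 lay under 1 CPM. Without both libraries numbered 3, 71% of 15636 genes had an interval within 2-fold and 44.2% within 1.5-fold, and a fitted difference beyond 2-fold was found in 155 genes higher and 606 lower in CTR_HI. The shares were alike without number 1 (73.2% and 43.4%) and without number 2 (73% and 44.2%). Differences beyond 2-fold were then 183 higher and 325 lower without number 1, and 184 higher and 223 lower without number 2.

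**Figure D1:**
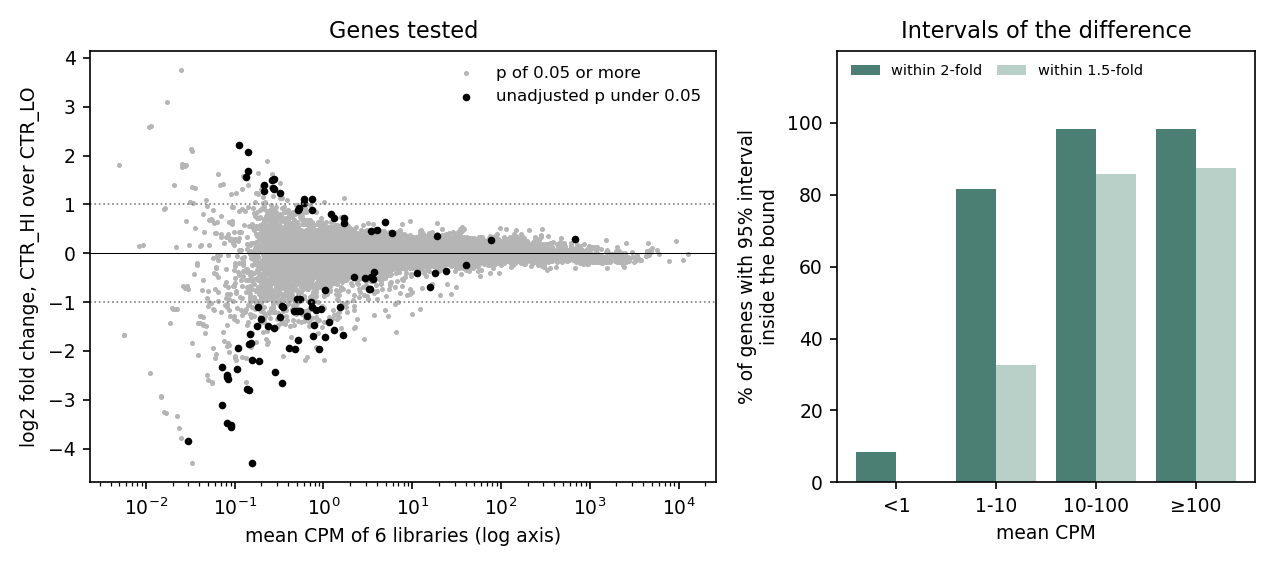
Left, the log2 fold change of CTR_HI over CTR_LO (vertical axis) against the mean CPM of the 6 libraries (log axis), 1 point per gene tested, with the 91 genes at an unadjusted p below 0.05 in black and dotted lines at 2-fold. Right, the percentage of genes in each class of mean CPM whose 95% interval lies within 2-fold or 1.5-fold: the points close in on 0 as the level rises, and 98.2% of genes at 100 CPM or more lie within 2-fold.

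The genes with the smallest p in the fit without a term for number are given as values, since none was called. Among those higher in CTR_HI, LSS, the lanosterol synthase of cholesterol synthesis (chromosome 21), stood at 62.9, 74.3 and 74.0 CPM in CTR_LO and 81.3, 86.4 and 87.9 CPM in CTR_HI. Its groups did not overlap, and the difference was small, with a log2 fold change of 0.28 ± 0.12. PLEC, the cytoskeletal linker plectin, stood at 518, 599 and 710 CPM in CTR_LO and 726, 805 and 707 CPM in CTR_HI, where replicate 3 of CTR_HI fell just below replicate 3 of CTR_LO. DNA2, a nuclease and helicase of DNA replication and repair, had 3.75, 2.82 and 5.02 CPM in CTR_LO and 7.97, 5.27 and 4.78 CPM in CTR_HI. That is the same arrangement, higher in CTR_HI in numbers 1 and 2 and not in 3. ZNF714, KBTBD11, B4GALNT1, ARID3A and AURKAPS1 had log2 fold changes of 0.36 to 0.72 without overlap between the groups, all but B4GALNT1 under 10 CPM. Among those lower in CTR_HI, LPAR6, a receptor for lysophosphatidic acid, stood at 26, 26.5 and 28.4 CPM in CTR_LO and 19.4, 19.3 and 24 CPM in CTR_HI. EIF4E3, a member of the cap-binding family of translation initiation factors, stood at 15.2, 12.3 and 11.3 CPM in CTR_LO and 10.3, 8.96 and 9.93 CPM in CTR_HI. The groups did not overlap for LPAR6 or EIF4E3, and their log2 fold changes were -0.37 ± 0.13 and -0.41 ± 0.16. RGS5, a regulator of G protein signalling used as a pericyte marker, had 4.83, 4.87 and 2.47 CPM in CTR_LO and 2.05, 2.34 and 2.89 CPM in CTR_HI. TNN, the matrix protein tenascin-N, had 4.23, 3.16 and 0.238 CPM in CTR_LO and 0.744, 0.69 and 0.973 CPM in CTR_HI. For RGS5 and TNN the libraries numbered 3 again had the order opposite to the others. DCLK1, PCMTD2, MYO7A and APPL1 completed the 8 genes, with log2 fold changes from -0.73 to -0.25. The fit with the term for number also called 0 genes and favours those whose difference is alike in each number. Its 8 genes of smallest p higher in CTR_HI were higher there in each number. PIEZO1 among them stood at 129, 136 and 178 CPM in CTR_LO and 171, 179 and 227 CPM in CTR_HI. Of its 8 lower in CTR_HI, all but GPC3 were lower in each number. GABARAP stood at 151, 163 and 110 CPM in CTR_LO and 118, 134 and 96.9 CPM in CTR_HI.

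No gene used as a marker of breast stem cells was called in the comparison of 3 against 3. Of 24 such genes in the files 20 passed the filter, 0 were called (0% of all genes), 12 had a positive and 8 a negative log2 fold change, and the median was 0.04 beside -0.00337 for all genes. For 15 of the 20 the interval lay within 2-fold. Without both libraries numbered 3, 10 of the 20 were positive and 10 negative (median -0.0009). With a term for replicate number as well, 1 of the 20 was called, lower in CTR_HI, as were 1.55% of all genes. The integrins that mark basal and stem-enriched mammary cells were the most abundant. ITGB1 stood at 713, 621 and 653 CPM in CTR_LO and 806, 670 and 586 CPM in CTR_HI (interval -0.28 to 0.38). ITGA6, CD49f, stood at 502, 391 and 491 CPM in CTR_LO and 612, 404 and 415 CPM in CTR_HI (interval -0.31 to 0.40). Both were higher in CTR_HI in numbers 1 and 2 and lower in number 3. PROCR, a surface receptor that marks a multipotent mammary population, stood at 71.7, 82.9 and 95.4 CPM in CTR_LO and 88.0, 92.1 and 75.3 CPM in CTR_HI, in the same arrangement.

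The aldehyde dehydrogenases whose activity defines a second breast stem cell phenotype were low. ALDH1A1 had 6.20, 4.00 and 3.59 CPM in CTR_LO and 3.78, 2.59 and 4.35 CPM in CTR_HI, and ALDH1A3 had 3.39 to 5.21 CPM in CTR_LO and 3.66 to 5.03 CPM in CTR_HI. Neither separated the groups, with intervals of -1.16 to 0.43 and -0.44 to 0.58. The transcription factors SOX9, KLF4 and SNAI2 and the receptor NOTCH1 stood between 34.7 and 257 CPM with log2 fold changes between -0.14 and 0.13. CD109, a surface glycoprotein, had the smallest unadjusted p of the group, 0.191, at 155, 142 and 152 CPM in CTR_LO and 181, 151 and 180 CPM in CTR_HI. THY1, a surface glycoprotein that also marks fibroblasts, varied widely among libraries, from 2.75 to 16.7 CPM in CTR_LO and from 0.69 to 8.04 CPM in CTR_HI. The other 4 markers, PROM1, SOX2, NANOG and CXCR1, had at most 5 counts in any of the 6 libraries and could not be compared.

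**Figure D2:**
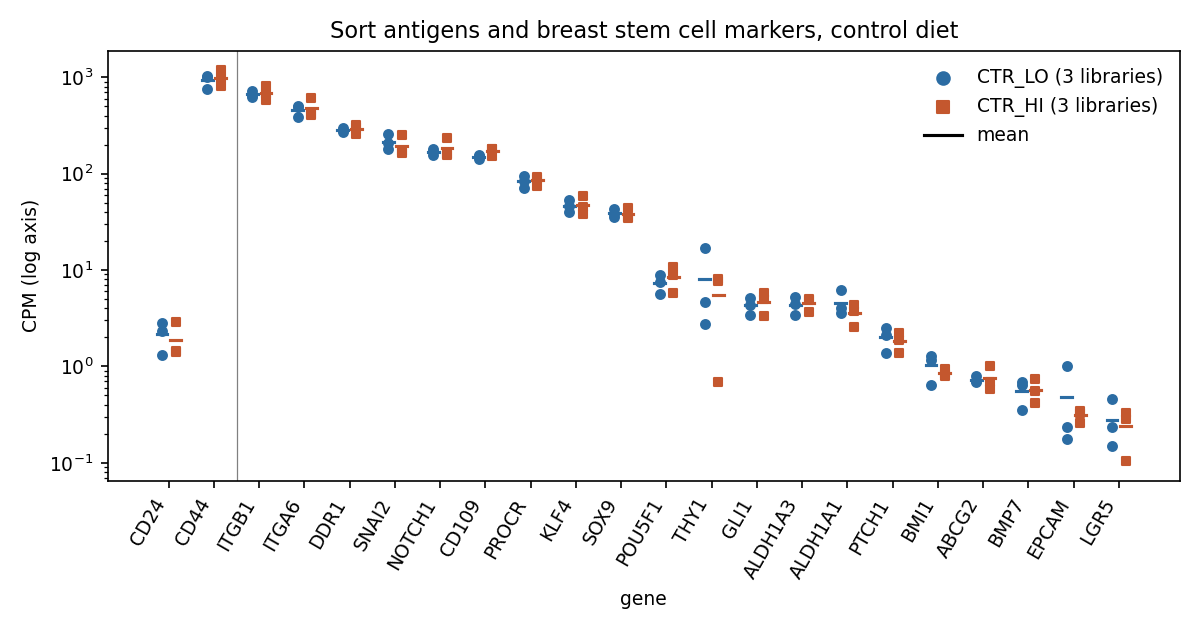
CPM (log axis) of the sort antigens CD24 and CD44, left of the line, and of the 20 breast stem cell markers tested, ordered by level. Each point is 1 library, circles for CTR_LO and squares for CTR_HI, and short bars are means of 3 libraries: the groups overlap for every gene shown, and CD24 lies far below CD44 in all 6 libraries.

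VIM, CDH1 and EPCAM stood at the levels of a mesenchymal line in both populations, while other epithelial genes were expressed. VIM, the intermediate filament vimentin, ran from 4348 to 5512 CPM, while CDH1, E-cadherin, ran from 0.803 to 1.87 CPM and EPCAM from 0.178 to 1.02 CPM. Basal keratins were nevertheless abundant, KRT5 at 3393 to 5149 CPM and KRT17 at 4644 to 6638 CPM. Desmosome genes summed to 1250 to 1460 CPM, with DSG2 at 194 to 290 CPM, and epithelial adhesion and identity genes to 327 to 364 CPM. Of 26 epithelial adhesion and identity genes 15 passed the filter and 6 of these had a positive log2 fold change (median -0.06), while 14 of the 26 stayed under 1 CPM in every library. Of 23 mesenchymal genes and factors of the epithelial-mesenchymal transition 15 had a negative and 8 a positive log2 fold change (median -0.07), and 20 had an interval within 2-fold. That median turned to 0.02, with 12 of 23 positive, without CTR_LO replicate 1. By number the medians were -0.18, -0.13 and 0.23, and without both libraries numbered 3 the list had a median of -0.13. ZEB1, a repressor of E-cadherin, stood at 26, 27.3 and 20.8 CPM in CTR_LO and 22.2, 22.9 and 21.5 CPM in CTR_HI, a log2 fold change of -0.16 ± 0.12. SNAI2 was lower in CTR_HI in each of the 3 numbers, at 208, 257 and 180 CPM against 170, 250 and 164 CPM, by less than the spread within a group. In the comparison of 3 against 3, no member of these groups, of the 13 keratins or of the 7 desmosome proteins was called (0% of all genes).

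A set of genes differed strongly between CTR_HI and CTR_LO in numbers 1 and 2 and in the opposite direction in number 3. Values were compared as log2(CPM + 0.5) between the libraries of a number, and genes were picked by their differences in numbers 1 and 2 and read in number 3, which entered the choice only through the minimum mean of 2 CPM over the 6 libraries. Of 164 genes lower in CTR_HI by more than 0.5 in both numbers 1 and 2, 161 (98.2%) were higher in CTR_HI in number 3, where 51.5% of all genes had that sign, and their median difference there was 0.88. Of 44 genes higher in CTR_HI by more than 0.5 in both, 38 (86.4%) were lower in CTR_HI in number 3, where 48.5% of all genes had that sign, with a median of -0.46. With the minimum set on the 4 libraries numbered 1 and 2 alone, the opposite sign was found in number 3 in 166 of 170 and 36 of 42 genes. By contrast 0 genes were lower by that much in both numbers 1 and 3 or in both numbers 2 and 3, and 1 and 3 genes were higher. These counts describe 3 pairs of libraries and carry no test.

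Genes of stroma and vessels were among the first group. The genes named here were chosen after their values were seen, as those with the largest differences in numbers 1 and 2. SPARCL1, a matricellular glycoprotein of stroma and vessels (chromosome 4, 87473335 to 87529376), stood at 178, 98.4 and 50.7 CPM in CTR_LO and at 57.8, 28.4 and 162 CPM in CTR_HI. PDGFRB, the receptor for platelet-derived growth factor that marks pericytes and fibroblasts (chromosome 5, 150113839 to 150155845), stood at 373, 170 and 123 CPM in CTR_LO and 151, 62.1 and 421 CPM in CTR_HI. For both genes CTR_HI replicate 3 and CTR_LO replicate 1 were the highest libraries, and CTR_LO replicate 3 lay below CTR_LO replicates 1 and 2. LUM, the collagen-binding proteoglycan lumican (chromosome 12, 91102629 to 91111494), had 61.5, 10.2 and 7.31 CPM in CTR_LO and 15.4, 1.07 and 27.4 CPM in CTR_HI. Over 3 libraries against 3 these contrary differences left log2 fold changes near 0 with wide errors, -0.40 ± 0.62 for SPARCL1, -0.07 ± 0.61 for PDGFRB and -0.85 ± 1.06 for LUM.

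Signalling genes showed the same arrangement. TIE1, an endothelial receptor tyrosine kinase (chromosome 1, 43300982 to 43323108), had 2.59, 6.58 and 1.01 CPM in CTR_LO and 0.178, 0.896 and 2.40 CPM in CTR_HI. HEYL, a transcriptional repressor downstream of Notch, stood at 84.3, 28.9 and 23.4 CPM in CTR_LO and 28.5, 8.58 and 70.6 CPM in CTR_HI. LEFTY2, a secreted inhibitor of Nodal, stood at 15.5, 6.32 and 4.13 CPM in CTR_LO and 4.25, 1.83 and 15 CPM in CTR_HI. In all of these CTR_HI replicate 3 came close to CTR_LO replicate 1 and lay above CTR_LO replicate 3.

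Cytokine and cell-cycle genes ran the other way. CSF2, the cytokine GM-CSF, stood at 56.7, 88.0 and 88.4 CPM in CTR_LO and 108, 152 and 44.9 CPM in CTR_HI. UBE2C, the ubiquitin-conjugating enzyme of the anaphase-promoting complex, stood at 28.8, 37.1 and 50.2 CPM in CTR_LO and 55.3, 52.2 and 28.5 CPM in CTR_HI. CLDN14, a tight junction claudin, stood at 49.1, 173 and 150 CPM in CTR_LO and 93.4, 303 and 74.1 CPM in CTR_HI. For all of these CTR_HI was the higher library in numbers 1 and 2 and the lower in number 3. Of 29 NF-kB-driven cytokine and chemokine genes 22 had a positive log2 fold change over all 6 libraries (median 0.06), and the median difference by number was 0.14, 0.21 and -0.18.

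**Figure D3:**
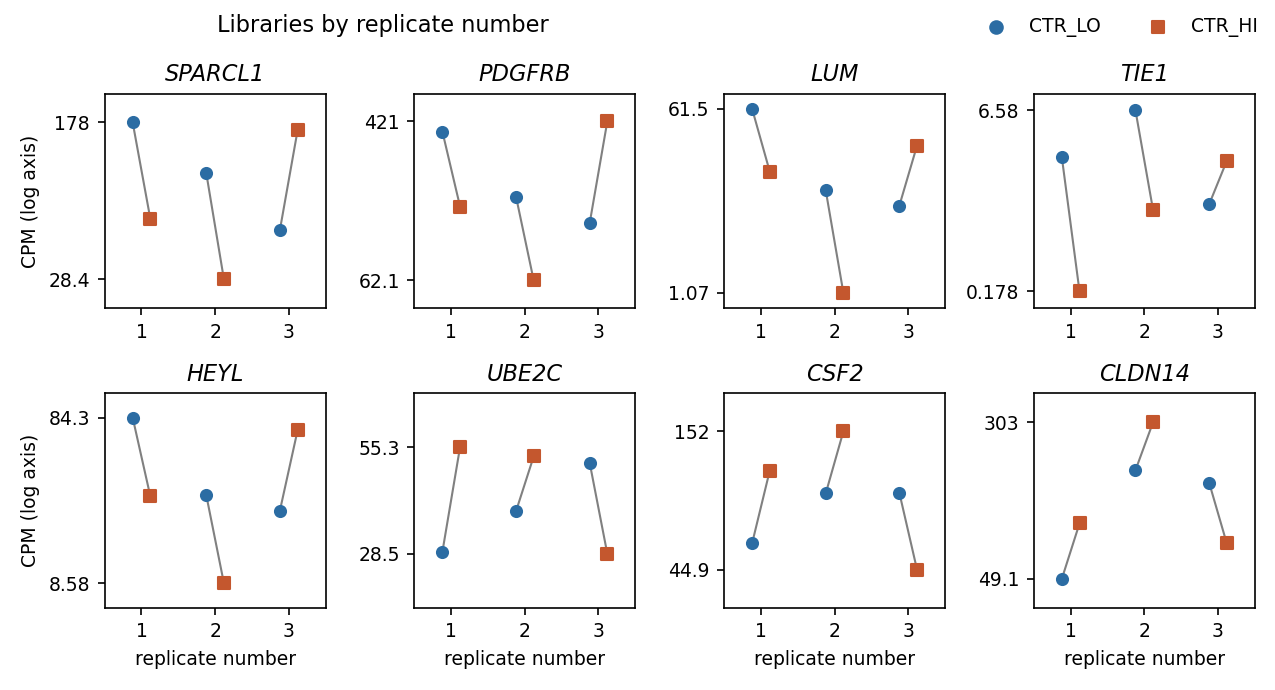
CPM (log axis, lowest and highest library marked on each axis) of 8 genes by replicate number, circles for CTR_LO and squares for CTR_HI, joined within a number. SPARCL1, PDGFRB, LUM, TIE1 and HEYL slope down from CTR_LO to CTR_HI in numbers 1 and 2 and up in number 3, while UBE2C, CSF2 and CLDN14 do the reverse.

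The cell-cycle lists followed the same split as whole groups. All 33 genes of the G2 and mitosis list were higher in CTR_HI in number 1 (median log2 difference 0.71), 31 were higher in number 2 (median 0.18) and all 33 were lower in number 3 (median -0.57). Genes of the G1/S transition and DNA replication had medians of 0.54, 0.12 and -0.39, with all 32 lower in number 3. MKI67, the proliferation antigen Ki-67, stood at 90.7, 99.7 and 118 CPM in CTR_LO and 153, 112 and 107 CPM in CTR_HI. TOP2A, the topoisomerase of dividing cells, stood at 93.6, 103 and 150 CPM in CTR_LO and 176, 125 and 101 CPM in CTR_HI. In the comparison of 3 against 3, 32 of 33 mitotic genes and 30 of 32 replication genes had a positive log2 fold change, with medians of 0.14 and 0.10 and 0 called (0% of all genes). That sign rested on CTR_HI replicate 1: without it the median of the mitotic genes was -0.11, with 27 of 33 negative, and that of the replication genes -0.11. Without both libraries numbered 3 the medians were 0.51 and 0.38, and still 0 genes were called in the fit without a block.

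Matrix and fibroblast genes were their counterpart. The 17 fibroblast and pericyte markers had median log2 differences of -0.66, -0.90 and 0.64 in numbers 1, 2 and 3, with 15, 15 and 1 of the 17 lower in CTR_HI. Of the 20 collagen genes above 2 CPM, 18, 13 and 2 were lower, with medians of -0.20, -0.14 and 0.38. In the comparison of 3 against 3 the marker list had a median of -0.23 with 14 of 17 negative. It turned to 0.21 without CTR_LO replicate 1 and to 0.06 without CTR_HI replicate 2, and it was -0.75 without both libraries numbered 3. The summed level of the 17 markers was 35900, 23100 and 20200 CPM in CTR_LO and 27300, 16400 and 30700 CPM in CTR_HI. Most of that sum came from COL1A1, at 8961 to 16247 CPM, and COL3A1, at 5000.3 to 11311 CPM, collagen genes that mesenchymal tumour cells can express too. In bulk samples a lower share of one cell type and less RNA per cell cannot be told apart.

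Markers of other cell types were mostly low, and their summed levels overlapped between the populations. The 15 endothelial markers summed to 90.0, 90.2 and 99.4 CPM in CTR_LO and 101, 83.6 and 102 CPM in CTR_HI, most of it ENG at 47.1 to 70.9 CPM, while 6 of the 15 stayed under 1 CPM in all 6 libraries. Of the 13 that passed the filter 8 had a negative log2 fold change (median -0.37). Without both libraries numbered 3, 10 of 14 were negative (median -0.52). PECAM1 ran from 2.20 to 3.72 CPM and CDH5 from 0.207 to 1.24 CPM. The 22 leukocyte markers summed to 136, 208 and 195 CPM in CTR_LO and 182, 215 and 152 CPM in CTR_HI, of which LCP1, an actin-bundling protein that carcinoma lines also express, made 84.8 to 145 CPM. PTPRC, the leukocyte antigen CD45, ran from 1.76 to 4.34 CPM, FCGR3A had 0 counts in all 6 libraries and TYROBP at most 1. The 8 leukocyte markers above 2 CPM had medians by number of 0.43, 0.0063 and -0.34. The 16 markers of muscle, nerve and fat summed to 281 to 401 CPM, nearly all from PLP2, which many cell types express, and 10 of the 16 stayed under 1 CPM in all 6 libraries. All 9 of these that passed the filter had a negative log2 fold change (median -0.75), DES and MBP among them, at most 1.28 CPM each. The median was -1.37 without both libraries numbered 3. The 9 erythroid markers summed to at most 5.72 CPM. Of all members of these lists 0 were called in the comparison of 3 against 3 (0% of all genes), and the part of host or stromal cells in the differences above was not tested.

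Over the 6 libraries the metabolic lists differed little. The 52 cytosolic ribosomal protein genes were all lower in CTR_HI, by a small step, with a median log2 fold change of -0.15 and none beyond -0.22, and all 52 intervals lay within 1.5-fold. This group kept its sign in each number, with medians of -0.11, -0.07 and -0.26 and 44, 43 and 52 of the 52 lower. RPS15A stood at 933, 1111 and 1033 CPM in CTR_LO and 795, 1009.7 and 881 CPM in CTR_HI. These are short transcripts, and in CTR_HI replicate 3 short transcripts as a class lay low. Across 11148 protein-coding genes the log2 fold change rose with transcript length (Spearman rho = 0.193 across genes), from a median of -0.02 under 750 bases to 0.08 at 6000 bases or more. Without CTR_HI replicate 3 the median of the ribosomal protein genes was -0.08, with 45 of 52 negative. Of 36 nuclear genes of the respiratory chain 31 were lower in CTR_HI (median -0.06), and all 36 intervals lay within 1.5-fold. Their medians by number were 0.09, -0.01 and -0.31, so that sign came from number 3. Without both libraries numbered 3, 28 of the 36 were positive (median 0.06).

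Genes of lipid synthesis leaned the other way, while those of lipid breakdown did not. Of 24 genes of cholesterol synthesis and uptake 19 had a positive log2 fold change (median 0.04), LSS with the smallest p. The medians of the list by number were 0.34, 0.11 and -0.27, and 18 of 24 were negative without CTR_LO replicate 1 (median -0.04). Without both libraries numbered 3, 21 of 24 were positive (median 0.24). Fatty acid synthesis and desaturation had 12 of 17 genes positive (median 0.09), with medians by number of 0.12, -0.02 and 0.16. Fatty acid oxidation had 14 of 21 genes negative (median -0.07), with medians by number of -0.07, -0.06 and -0.12. FASN, the fatty acid synthase, was higher in CTR_HI in each number, at 227, 221 and 289 CPM in CTR_LO and 297, 273 and 314 CPM in CTR_HI, a log2 fold change of 0.26 ± 0.14 whose interval, -0.03 to 0.56, includes 0. Glycolysis and glucose transport had 20 of 26 genes positive (median 0.07). Their medians by number were 0.23, 0.14 and -0.21, and the sign turned without CTR_LO replicate 1 (18 of 26 negative, median -0.02) and without CTR_HI replicate 2 (17 of 26 negative, median -0.03). Without both libraries numbered 3, 24 of 26 were positive (median 0.23). Among these genes was PFKP, a phosphofructokinase, which stood at 83.6, 85.5 and 87.3 CPM in CTR_LO and 103, 101 and 104 CPM in CTR_HI. The groups did not overlap for PFKP, as for 1.47% of all genes in that direction, and its log2 fold change was 0.27 ± 0.18.

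Over the 6 libraries the medians of most signalling and stress lists lay near that of all genes. Those of the p53, hypoxia, unfolded protein, ATF4, NRF2, TGF-beta, Notch, WNT, insulin and PI3K, protein kinase A, interferon and antigen presentation lists all lay between -0.04 and 0.04, with 0 members called (0% of all genes). Some of these rest on contrary differences or on single libraries. The hypoxia list had 26 of 29 negative (median -0.19) without CTR_HI replicate 2, and the interferon list 34 of 39 positive (median 0.19) without CTR_LO replicate 3. Of 39 interferon-stimulated genes 36 had an interval within 2-fold, as had all 22 p53 targets, all 23 unfolded protein response genes and all 32 lysosome and autophagy genes. Notch genes followed the split by number, with medians of -0.19, -0.09 and 0.34, as did protein kinase A and CREB genes, with -0.15, -0.06 and 0.27. NRF2 genes ran the other way, with 0.13, 0.06 and -0.31. HEY1, a Notch target, stood at 16.6, 17.4 and 12.3 CPM in CTR_LO and 7.70, 9.34 and 17.6 CPM in CTR_HI. Of the 14 EGF receptor family genes 13 were positive (median 0.09), and only 3 had an interval within 1.5-fold. TGFB1, the cytokine TGF-beta 1, was higher in all CTR_HI libraries, at 152, 155 and 157 CPM, than in CTR_LO, at 133, 143 and 150 CPM, with a log2 fold change of 0.12 ± 0.12. Heat shock protein genes were negative in 14 of 17 (median -0.07) and immediate early genes in 26 of 31 (median -0.05). The immediate early genes had medians by number of -0.27, 0.0039 and 0.11, and 21 of 31 were positive (median 0.05) without CTR_LO replicate 1. CYR61, a matricellular target of YAP, stood at 1996, 1868 and 1290 CPM in CTR_LO and 1280.4, 1609 and 1287 CPM in CTR_HI.

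**Figure D4:**
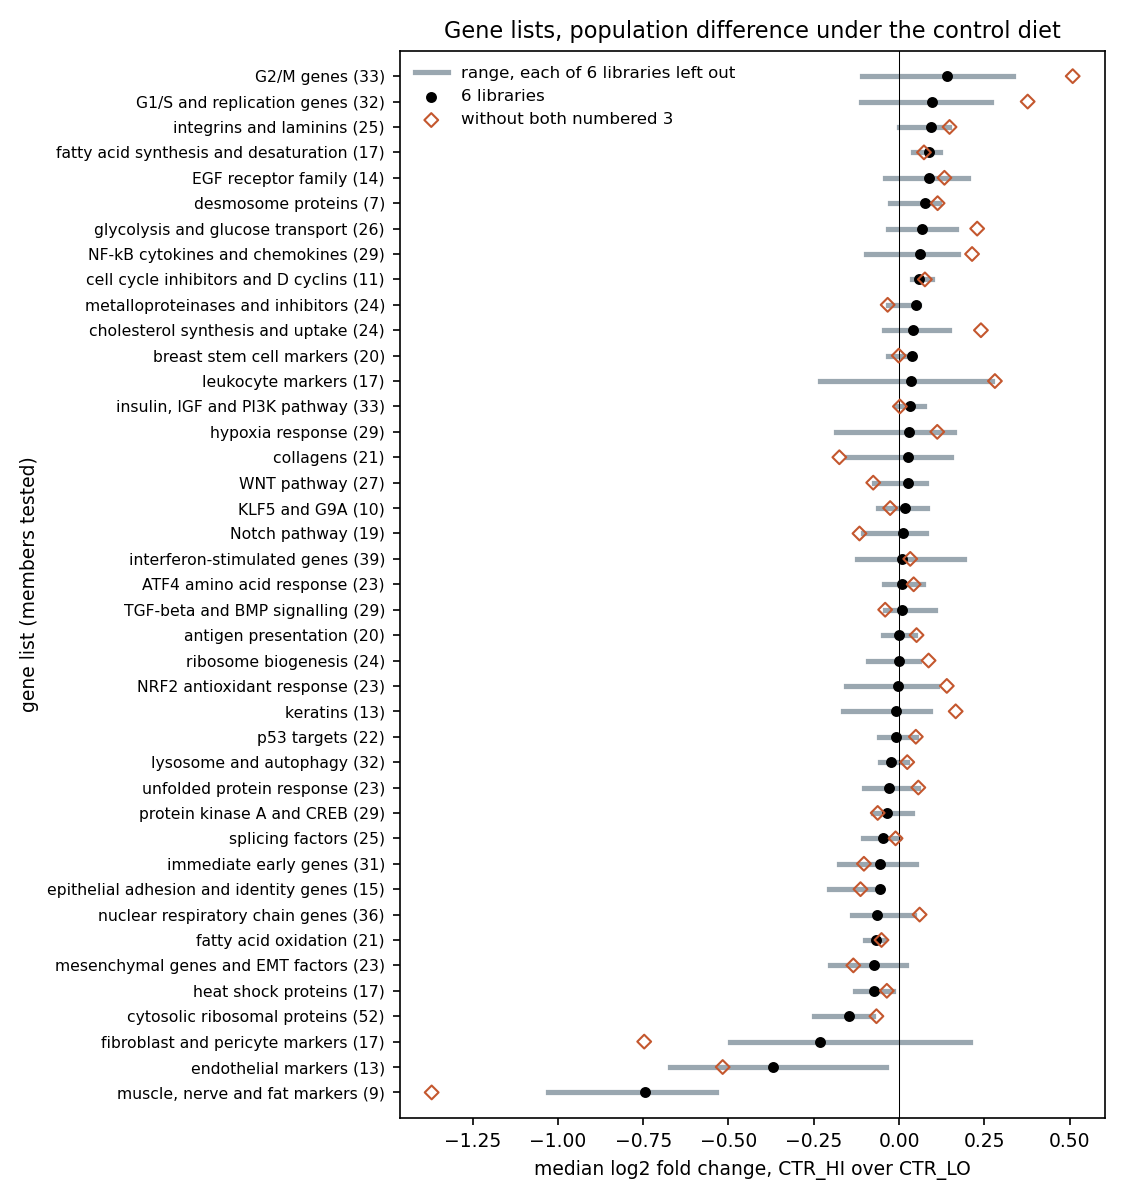
Median log2 fold change of CTR_HI over CTR_LO for each gene list with at least 5 members tested (number tested in brackets): the 6 libraries (black points), the range when each library is left out in turn (grey bars) and the value without both libraries numbered 3 (open diamonds). Most medians lie within 0.1 of 0, the grey bars of the cell-cycle and fibroblast lists cross 0, and leaving out the libraries numbered 3 moves the G2/M median to 0.51 and the fibroblast median to -0.75.

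In the 6 libraries, taken with their labels, the replicate number went with more of the variation than the population. In a decomposition of log2 CPM over all genes tested, the population accounted for 10.5% of the sum of squares with 1 degree of freedom, the replicate number for 59.9% with 2, and the remainder for 29.6% with 2. Without both libraries numbered 3 the population accounted for 27.4%, the number for 59% and the remainder for 13.7%, each with 1 degree of freedom. Leaving out another number also raised the share of the population, to 17.4% without number 1 and 16.8% without number 2. On the first principal component, with 39.8% of the variance, the libraries numbered 2 stood at 35.5 (CTR_LO) and 39.1 (CTR_HI), those numbered 1 at -30.5 and -24.5 and those numbered 3 at -5.27 and -14.3. On the second, with 23.7%, CTR_LO replicates 1 and 2 stood at 26 and 28.5, CTR_HI replicates 1 and 2 at -3.55 and -14.0, CTR_LO replicate 3 at -31.5 and CTR_HI replicate 3 at -5.43. The genes that weighed most on the positive side of the first component, picked after their values were seen, were inflammatory and secreted products. MMP1, interstitial collagenase, stood at 24.1, 547 and 141 CPM in CTR_LO and 56.7, 866 and 82.1 CPM in CTR_HI. S100A8, a subunit of calprotectin, stood at 0.269, 18.6 and 9.50 CPM in CTR_LO and 0.565, 20.4 and 6.55 CPM in CTR_HI. CSF3, the cytokine G-CSF, stood at 6.07, 86.7 and 57.1 CPM in CTR_LO and 15.3, 146 and 26.4 CPM in CTR_HI. Each of these was lowest in the libraries numbered 1 and highest in those numbered 2, in either population. Not all genes on that side were. S100A9 was highest in number 3 in CTR_LO (1.10, 38.7 and 41.2 CPM) and CHI3L1 in CTR_HI (0.982, 16.2 and 29.8 CPM). GPX3 was lowest in number 3 in both populations. LUM weighed most on the negative side, at 61.5, 10.2 and 7.31 CPM in CTR_LO and 15.4, 1.07 and 27.4 CPM in CTR_HI. It was followed by THY1, MXRA5, TMEM119 and MXRA8. NES, the intermediate filament nestin, lay on that side too, at 116, 25.7 and 45.3 CPM in CTR_LO and 59.6, 11.9 and 74.2 CPM in CTR_HI.

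**Figure D5:**
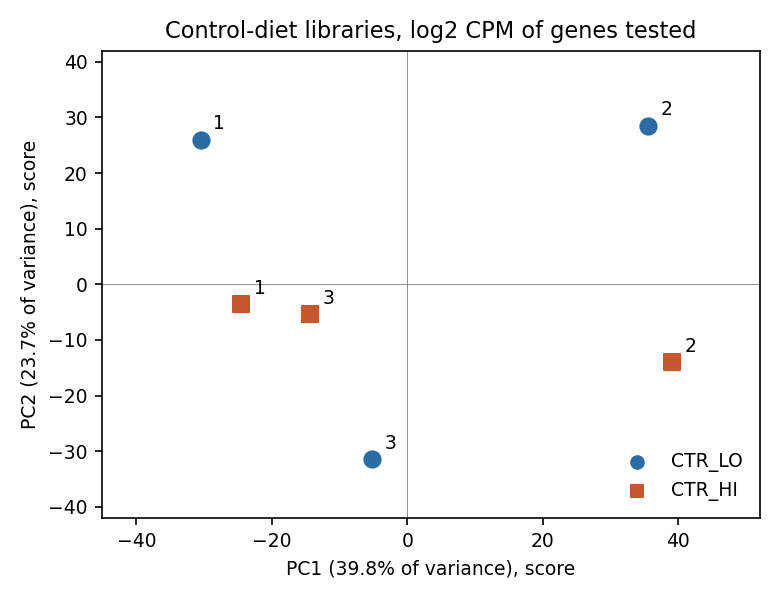
Scores of the 6 control-diet libraries on the first principal component (horizontal axis, 39.8% of the variance) and the second (vertical axis, 23.7%) of log2 CPM, circles for CTR_LO, squares for CTR_HI, with the replicate number beside each point. The libraries numbered 2 lie at the right whatever their population, and CTR_LO replicate 3 lies lowest on the second component, apart from the other CTR_LO libraries.

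The count of differing genes turned on the libraries numbered 3. Without both of them the fit that had no term for replicate number called 0 genes, with 430 at an unadjusted p below 0.05 and a smallest adjusted p of 0.629. With the term for number and without these libraries, 502 of 15636 genes were called (3.21%), 243 lower in CTR_HI (1.55%; median log2 fold change -1.06) and 259 higher (1.66%; median 0.46). Called members were most numerous in the cell-cycle and fibroblast lists, with 14 of 33 mitotic genes and 9 of 32 replication genes higher in CTR_HI, and with 7 of 17 fibroblast and pericyte markers lower and 1 higher. Lower in CTR_HI were also 4 of 14 endothelial markers, 4 of 23 mesenchymal genes, 4 of 31 immediate early genes and 4 of 19 Notch genes. Of 24 cholesterol genes 5 were higher, and of 26 glycolysis genes 3. Collagens had 4 of 21 lower and 1 higher, and metalloproteinases and inhibitors 3 of 24 lower and 1 higher. Of 26 genes of integrins and laminins 3 were lower and 3 higher. In each other list at most 2 members were called in a direction. SPARCL1 had a log2 fold change of -1.69 ± 0.09 there (adjusted p = 4.65e-09) and UBE2C one of 0.74 ± 0.10 (adjusted p = 0.000442). Of the 243 genes called lower in CTR_HI, 229 were lower in CTR_LO than in CTR_HI in the libraries numbered 3. That fit rests on 2 libraries against 2 under the control diet. The libraries left out were chosen after their differences were seen to run against those of numbers 1 and 2. The calls and adjusted p-values of that fit therefore describe how far these numbers agree and are no independent test. Without number 1 or without number 2 the fit with the term called 0 genes.

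For a part of the genes the difference between the populations depended on the diet. A test of the interaction called 638 of 15461 genes (4.13%), and in 630 of them the control-diet difference was the more positive one. The median log2 fold change of the 638 genes was -0.05 under the control diet and -1.84 under the fasting-mimicking diet, and for 414 of them the control-diet interval lay within 2-fold. THBS2, a matrix thrombospondin, had a log2 fold change of -0.69 under the control diet against -4.35 under the fasting-mimicking diet, and CSF1R, the macrophage growth factor receptor, 0.47 against -2.87. The leukocyte markers summed to 732 to 794 CPM in the CD24-low cells of mice on the fasting-mimicking diet, above the 136 to 215 CPM of all 6 control-diet libraries. The fibroblast and pericyte markers did so too, at 47400 to 70300 CPM against 16400 to 35900 CPM, as did the endothelial markers, at 113 to 164 CPM against 83.6 to 102 CPM. Markers of muscle, nerve and fat, at 330 to 351 CPM, stayed within the control-diet range of 281 to 401 CPM. The part of these cell types in the interaction was not tested. The count was 409 without CTR_LO replicate 3, 412 and 380 without CD24-low replicates 1 and 2 of the fasting-mimicking diet, and 403 without its CD24-high replicate 2. It was 343 of 15636 (2.19%) without both control-diet libraries numbered 3, of which 328 were among the 638, with a median log2 fold change of -0.12 under the control diet and -2.20 under the fasting-mimicking diet.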

How the data were processed

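RNA-seq counts of 6 control-diet libraries, 3 per sorted population, were compared, and the 6 libraries of the fasting-mimicking diet shared the fit. The authors deposited raw read counts per gene symbol for each library; reads were aligned with STAR to hg38, per the submitters' processing notes, and the version and the annotation are not given in the sources used here. Of the columns in each file, the counts of the reverse strand were used, as the kit's strand; the opposite strand held 1.59% to 1.75% of the reads on either. Positions are from RefSeq GRCh38.p14, to which 23749 symbols matched, and lengths from GENCODE.

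With edgeR 4.0.16 in R 4.3.3 (TMM scaling, filterByExpr by group, robust quasi-likelihood test) 12 libraries in 4 groups left 8 degrees of freedom, and the biological coefficient of variation was 0.19. A gene was called where its p, adjusted by Benjamini-Hochberg over 15461 genes, was below 0.05, and 11014 genes were left out by the filter. Standard errors come from the weights of the fit and its moderated dispersion. Between replicates the counts differed far beyond counting noise in every pair. Alternatives were RLE scaling, unstranded counts, no filter, DESeq2 1.42.0, fewer libraries, thinning to the smallest total, blocks for replicate number and each library left out. The scripts were tested on simulated data.

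Gene lists, members and tests were chosen with earlier results of these data known, and the 43 lists were described by counts and medians without a set test. Named genes were CD24 and CD44, up to 10 called genes per direction in the fit without and in the fit with a block or, where fewer than 5 were called, the 8 with the smallest p at 2 CPM or more in the higher group, up to 2 members of each list with the smallest p, and the stem cell markers; other genes are named as examples chosen after their values were seen. Part of the named genes are printed, and some items are withheld and not reported here.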

Additional observations from a re-analysis of the deposited data

Results flagged for a closer look

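For the named genes given here the difference between CTR_HI and CTR_LO differed from the same difference under the fasting-mimicking diet, by edgeR's test of the interaction at an adjusted p below 0.05. The value given is the control-diet log2 fold change minus that of the fasting-mimicking diet, ± standard error.

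Genes of stroma and white blood cells had large values. It was 3.66 ± 0.43 for THBS2 (adjusted p = 0.000936), with -0.69 under the control diet against -4.35, and 2.30 ± 0.44 for RGS5 (adjusted p = 0.0105). For CSF1R it was 3.34 ± 0.41 (adjusted p = 0.000691), with 0.47 against -2.87. The mean of CSF1R in CD24-low cells under the fasting-mimicking diet was 25.2 CPM, against at most 2.59 CPM in any control-diet library.

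PLIN2, which coats lipid droplets, had a value of 4.90 ± 0.96 (adjusted p = 0.0253). This call was lost without each of 7 single libraries, CTR_HI replicates 2 and 3, and, under the fasting-mimicking diet, CD24-low replicates 1 and 2 and CD24-high replicates 1, 2 and 3. DCLK1, a microtubule-associated kinase, had 2.87 ± 0.46, PDIA3P1, a pseudogene of a disulfide isomerase that can share reads with its parent gene, 2.45 ± 0.42, and MYO7A, an unconventional myosin, 2.21 ± 0.31. Values were smaller for APPL1, an endosomal adaptor (1.58 ± 0.32), TRA2A, a splicing factor (1.17 ± 0.19), and GABARAP, an autophagy protein (1.16 ± 0.24). Without both control-diet libraries numbered 3 the calls of APPL1 (adjusted p = 0.0663) and PLIN2 (adjusted p = 0.0678) were lost, and without those numbered 1 the calls of APPL1 (0.0645) and GABARAP (0.0515). In all of these genes the control-diet difference was the more positive.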

How the results depend on the processing

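No gene was called between CTR_HI and CTR_LO under any alternative without a block, each library left out included, while the count at an unadjusted p below 0.05 ran from 52 without the CD24-low cells under the fasting-mimicking diet to 430 without both control-diet libraries numbered 3. With the replicate block within diet the count called was 0, also with RLE scaling, reads of either strand or no filter. With the block and 1 number left out it ran from 0 (numbers 1 and 2) to 502 (number 3); the cause was not tested. The numbers are not known to pair the libraries: the deviations of same-numbered libraries from their group means correlated at 0.44, 0.52 and 0.037 for numbers 1, 2 and 3, and CTR_HI replicate 3 correlated better with CTR_LO replicate 1 (0.17). By level, each CTR_HI library lay nearest to the CTR_LO library of its own number, with a root mean square log2 difference of 0.42 to 0.467 against medians of 0.543 for other numbers and 0.591 within a population. CTR_HI replicate 3 lay at 0.447 from CTR_LO replicate 3 and at 0.483 from CTR_LO replicate 1. The interaction with diet called 638 genes, 1702 with the replicate block, 1156 with DESeq2, 380 to 767 with 1 of the 12 libraries left out, 386 without both control-diet libraries numbered 1 and 343 without both numbered 3. Leaving out both libraries of a number, and the fits of the interaction without 1 or 2 libraries, were chosen after seeing the data. Under 1 CPM the spread between libraries left 8.54% of the genes with an interval within 2-fold, so that genes at that level were compared with little precision.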
